A study of Homo sapiens with 9 samples.

Results

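The globin genes are the 10 human genes for the alpha-type and beta-type chains of haemoglobin, followed here in a family of ovarian carcinoma cell lines. Their members were taken by gene symbol from the probe annotation, with every probe of a gene kept. Of the 10 genes, 9 were measured, by 10 of the 48803 probes on the array, among 18852 genes with a symbol. They were HBA2 with 2 probes and HBZ, HBM, HBQ1, HBB, HBD, HBE1, HBG1 and HBG2 with 1 probe each. HBA1 was not analysed here. The family was chosen with the levels of HBA2 in these lines already known, so the values of its members are a description and carry no test.

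Total RNA had been labelled with biotin and hybridized to Illumina bead arrays. The resistant lines are IGROV-1/OHP (OHP), labelled oxaliplatin-resistant, and IGROV-1/Pt1 (Pt1), labelled cisplatin-resistant, and the line they are set against is the parental IGROV-1, which is sensitive to cisplatin. Cisplatin and oxaliplatin are platinum drugs that crosslink DNA. The description of the series names cisplatin as the drug behind both resistant lines, so the drug that gave rise to OHP is uncertain. All 3 lines descend from 1 human ovarian carcinoma line, no group carries an introduced allele, and 3 arrays cover each line, 1 for each of 3 separate cell samples that the series counts as biological replicates. Each resistant line is a single derived line, so a difference describes that line, and precision is limited by having 3 arrays of each.

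Haemoglobin carries oxygen in red cells and pairs alpha-type with beta-type chains around haem. The alpha-type genes lie in a cluster on chromosome 16 and the beta-type genes in a cluster on chromosome 11, each with embryonic members that are replaced by later ones in development. In red cell precursors both clusters are driven by remote enhancers and by factors such as GATA1 and KLF1. Outside red cells, alpha globin is known in the endothelium of small arteries, where it acts on nitric oxide signalling.

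Intensity values are those deposited by the authors, on a linear scale and normalized between arrays. A background ceiling of 321 intensity units marks the level up to which a probe is not told from background. It was set so that 102 of the 4077 readings of 453 probes for olfactory receptors, genes not expected in these cells, lie above it. Values at or under it have no order. Replicates correlated at 0.987 to 0.994 across genes, which are not independent replicates, except that OHP array 2 correlated at 0.942 and 0.926 with the other OHP arrays and at 0.956 with parental array 2. OHP array 2 thus stood apart, and list counts and some of the values that rest on it are also given without it.

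Upstream windows could be matched in the RefSeq promoter table for 2 of the 10 members, HBM and HBD. They are shown as the sequences of 1 gene at background from each cluster, HBM from the stretch that holds HBA2 and HBD from the stretch that holds HBB. Each window runs from 250 bases before to 50 bases after the gene start on build GRCh38.p14, on the gene's own strand, chr16:165728-166027 (plus strand) for HBM and chr11:5234434-5234733 (minus strand) for HBD. Capitals mark matches on either strand to GATAA, the core bound by GATA factors, to CCAAT, to CACCC, to TATAA and to ATAAAA, of which the last 2 can overlap each other and GATAA can share letters with them.
HBM: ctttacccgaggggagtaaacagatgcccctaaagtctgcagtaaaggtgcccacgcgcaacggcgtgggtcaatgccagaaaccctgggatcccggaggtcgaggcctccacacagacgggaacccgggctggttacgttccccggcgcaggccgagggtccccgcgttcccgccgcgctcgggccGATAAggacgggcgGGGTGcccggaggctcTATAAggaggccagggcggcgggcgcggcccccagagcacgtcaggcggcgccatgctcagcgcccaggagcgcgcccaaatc
HBD: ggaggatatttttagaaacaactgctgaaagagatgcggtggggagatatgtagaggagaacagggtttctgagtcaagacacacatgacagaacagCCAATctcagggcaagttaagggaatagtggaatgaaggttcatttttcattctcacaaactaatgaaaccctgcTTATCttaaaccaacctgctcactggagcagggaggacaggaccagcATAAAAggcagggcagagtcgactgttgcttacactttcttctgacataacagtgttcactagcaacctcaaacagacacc

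The HBM window held GATAA 63 bases, CACCC on the reverse strand 49 bases and TATAA 33 bases before the gene start. The HBD window held CCAAT 153 bases, GATAA on the reverse strand 78 bases and ATAAAA 31 bases before the start. Among 35116 RefSeq windows of the same length, GATAA was present in 22.7%, CCAAT in 34.6%, CACCC in 59.9%, TATAA in 20.4% and ATAAAA in 16%. These matches describe letters and not bound sites.

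HBA2, which encodes the adult alpha chain, was bright in parental cells, dim in OHP and at background in Pt1. On probe 1 its intensity was 1666, 1346 and 1083 on OHP arrays 1, 2 and 3, against 191, 203 and 216 on the Pt1 arrays and 49190, 60535 and 53470 on the parental arrays. On probe 2 it was 1200, 1547 and 799 on the OHP arrays, 224, 197 and 167 on the Pt1 arrays and 35395, 42355 and 37895 on the parental arrays. No line overlapped another on either probe, and every Pt1 value lay under the ceiling while every OHP and parental value lay above it.

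The mean intensity of probe 1 was 1365 ± 292 in OHP, 203 ± 12.2 in Pt1 and 54399 ± 5729 in parental cells (SD, n = 3 each). On probe 2 the means were 1182 ± 374 in OHP, 196 ± 28.6 in Pt1 and 38548 ± 3526 in parental cells (SD, n = 3 each). The order of the lines, parental over OHP over Pt1, was the same on both probes, and each step exceeded the spread of the arrays.

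In Pt1, HBA2 was at least 169-fold lower than in parental cells on probe 1 and at least 120-fold lower on probe 2. Both are bounds set by the ceiling, since no level could be read in Pt1. The fitted difference of -8.99 ± 0.20 on the log2 scale (SE, limma) was the largest in size among 18852 genes, which is how the gene came to notice. Its size in Pt1 depends on the background correction, and it was -8.06 without that step.

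OHP kept 2.48% of the parental HBA2 intensity on probe 1 and 2.97% on probe 2. Both shares come from geometric means over the arrays of deposited values, which still hold background. These shares were 2.48% and 2.55% without OHP array 2. After background correction, the fitted log2 difference of OHP minus parental was -5.44 ± 0.20 on probe 1 and -5.20 ± 0.29 on probe 2 (SE). That of probe 1 ranked 12th by size among the 18852 genes. The lowest parental value still exceeded the highest OHP value 29.5-fold on probe 1 and 22.9-fold on probe 2.

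Between the resistant lines, HBA2 was at least 4.19-fold higher in OHP than in Pt1 on probe 1 and at least 3.55-fold higher on probe 2. The lowest OHP value was 3.37 times the ceiling on probe 1 and 2.49 times on probe 2, so HBA2 remained above background on every OHP array. In RNA from whole cultures, fewer cells that express a gene and less RNA per cell cannot be told apart.

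The ratio of probe 1 to probe 2 was 1.39, 1.43 and 1.41 on parental arrays 1, 2 and 3. On OHP arrays 1 and 3 it was 1.39 and 1.36, close to the parental ratio, while OHP array 2 had 0.870. On the Pt1 arrays, where both probes were at background, it ran from 0.853 to 1.29. HBA1, the neighbouring gene, encodes the same alpha chain and differs little in its transcript, and whether the probes named HBA2 also read HBA1 was not tested.

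**Figure D1:**
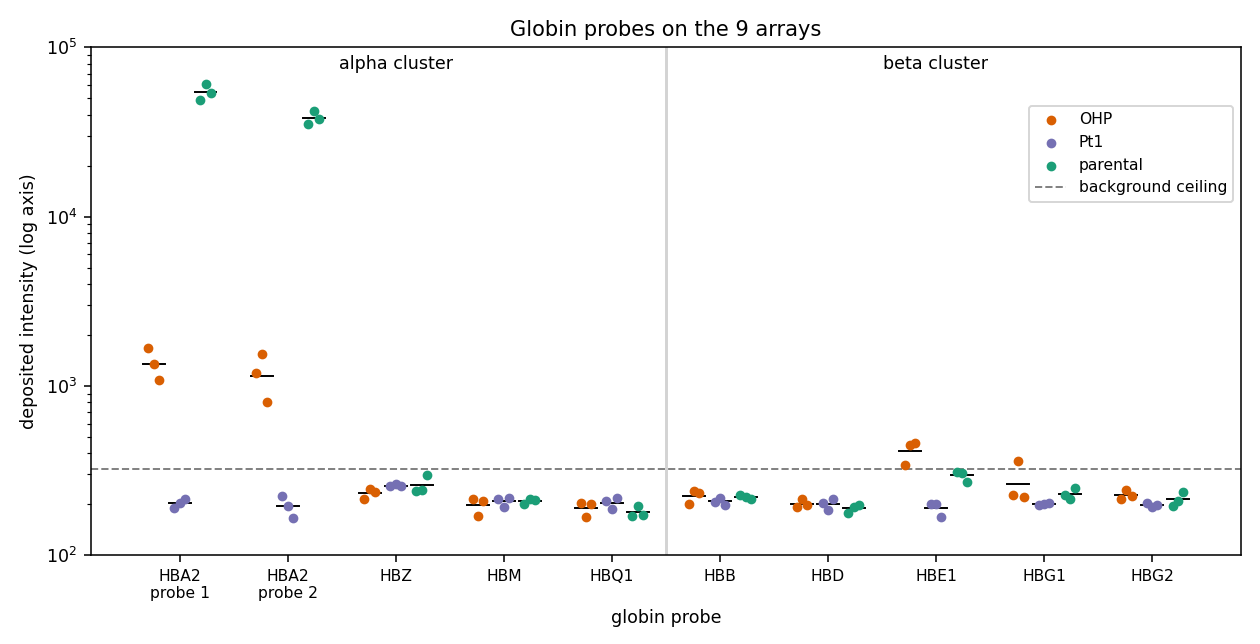
Deposited intensity (log axis) of the 10 globin probes on 3 OHP, 3 Pt1 and 3 parental arrays, 1 point for each array, with a black bar at the geometric mean of each line and a dashed line at the background ceiling of 321. HBA2 alone reaches parental values of 35395 to 60535, OHP lies between 799 and 1666 on its probes, and the remaining probes lie near or under the ceiling, with HBE1 in OHP above it.

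The other alpha-cluster genes stayed at background in all lines. HBZ, the embryonic alpha-type chain, read 215, 246 and 237 on the OHP arrays, 256, 262 and 255 on the Pt1 arrays and 239, 244 and 298 on the parental arrays. HBM and HBQ1, further alpha-type genes of the cluster, read 169 to 216 in OHP, 188 to 219 in Pt1 and 172 to 215 in parental cells. Of the 5 alpha-cluster probes, 2 lay above the ceiling on all arrays of OHP, 0 on those of Pt1 and 2 on those of parental cells, and those 2 were the HBA2 probes.

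In the beta cluster, HBE1 was the exception among genes at background. HBE1, the embryonic beta-type chain, read 342, 447 and 458 on the OHP arrays, 200, 200 and 169 on the Pt1 arrays and 312, 307 and 270 on the parental arrays. All OHP values were above the ceiling, and all Pt1 and parental values were under it and so have no order between them. The OHP mean was 415 ± 64.1 against 190 ± 18 in Pt1 and 297 ± 22.8 in parental cells (SD, n = 3 each).

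HBE1 in OHP was at least 1.28-fold higher than in either of the other lines. The bound is small because the OHP signal stands little above background. With the ceiling at the 99th percentile of the olfactory receptor probes, 455 intensity units, 1 of the 3 OHP arrays lay above it. With olfactory pseudogenes left out, the ceiling was 302 and parental cells lay above it on 2 of 3 arrays, so whether parental cells hold HBE1 signal rests on that choice. HBE1 was thus highest in OHP, whereas HBA2 was highest in parental cells. The olfactory receptor gene OR52A5 read 724, 719 and 537 on the OHP arrays, so a gene not expected in these cells can also lie above the ceiling.

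HBB, the adult beta chain that pairs with alpha globin in adult haemoglobin, read 202, 240 and 233 on the OHP arrays, 208, 218 and 199 on the Pt1 arrays and 228, 220 and 216 on the parental arrays. All 9 values lay under the ceiling, in parental cells with bright HBA2 as in Pt1 with HBA2 at background. HBD, a minor adult beta-type chain, read 192 to 215 in OHP, 186 to 214 in Pt1 and 178 to 199 in parental cells.

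The fetal chains behaved likewise apart from 1 array. HBG1 read 228, 360 and 221 on the OHP arrays, 197, 200 and 205 on the Pt1 arrays and 226, 216 and 249 on the parental arrays. Its value above the ceiling came from OHP array 2, and without that array no value of HBG1 passed the ceiling. HBG2 read 214 to 244 in OHP, 192 to 203 in Pt1 and 196 to 237 in parental cells.

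Counted by gene, the arrays of Pt1 and parental cells did not overlap for 3 of the 9 globins (HBA2, HBE1 and HBG1), as for 39.4% of all 18852 genes. OHP and parental arrays did not overlap for 2 of 9 (HBA2 and HBE1), as for 18.6% of all genes, and OHP and Pt1 arrays for 5 of 9, as for 27.8%. No overlap between any of the 3 lines was seen for HBA2 and HBE1 alone among the globins, as for 4.68% of all genes. The comparisons with parental cells share the parental arrays. HBE1 and HBG1 in Pt1 against parental cells, and HBZ and HBG2 in OHP against Pt1, were separated wholly under the ceiling, where values have no order. Since the family was chosen on these contrasts, the counts carry no weight as support.

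A short set of red cell markers was at background in every line, while some genes of a wider red cell list, given further below, were not. Of the 10 markers, 8 were measured, and all 8 lay under the ceiling on all 9 arrays, between 159 and 284. They were the anion exchanger SLC4A1, the alpha chain chaperone AHSP, HEMGN, RHAG, EPB42, the erythroid aminolevulinate synthase ALAS2, and the factors GATA1 and KLF1. Their summed intensity was 1595 to 1696 in OHP, 1628 to 1676 in Pt1 and 1701 to 1744 in parental cells. AHSP, which binds free alpha chains in red cell precursors, read 203, 251 and 196 in OHP, 222, 211 and 200 in Pt1 and 214, 194 and 231 in parental cells.

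Of 15 leucocyte and platelet markers measured, 13 did not pass the ceiling on any array, and the summed intensity was 3317 to 3549 in OHP, 3256 to 3383 in Pt1 and 3387 to 3499 in parental cells. The remaining 2, the monocyte antigen CD14 and the lysozyme gene LYZ, reached 460 and 386 on OHP array 2, and LYZ also read 359 and 331 on parental arrays 1 and 2.

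The labelled cell type was checked against 7 ovarian carcinoma markers, which differed between the lines in several directions. Of the 7, 5 passed in Pt1 against parental cells, 3 higher and 2 lower, where 9.88% of all genes did, and 3 passed in OHP, 2 higher and 1 lower, where 5.41% did. With OHP array 2 left out, 5 passed in Pt1 and 6 in OHP, where 25.9% and 16.7% of all genes passed. The lineage factor PAX8 lay between 8633 and 28350 on all arrays, while the mucin MUC16 lay near the ceiling, at 341 to 394 in OHP, 283 to 361 in Pt1 and 324 to 379 in parental cells. Neither passed in Pt1 or in OHP against parental cells with all arrays. PAX8 in OHP had -0.11 ± 0.39 (adjusted p = 0.943), and -0.64 ± 0.20 without OHP array 2 (adjusted p = 0.0447).

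MSLN, the surface antigen mesothelin, read 10670, 17867 and 7786 in OHP, 11405, 12293 and 11795 in Pt1 and 316, 335 and 271 in parental cells. It rose by 5.76 ± 0.28 in OHP (adjusted p = 3.08e-06) and by 5.81 ± 0.28 in Pt1 (adjusted p = 1.45e-06), opposite to HBA2, although parental cells lay near the ceiling. The keratin KRT7 rose by 1.20 ± 0.26 in OHP (adjusted p = 0.0286) and fell by 2.36 ± 0.26 in Pt1 (adjusted p = 0.00036) against parental cells. The OHP call of KRT7 was lost without OHP array 1, any 1 Pt1 array, or parental array 2 or 3.

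The keratins KRT8 and KRT18 rose in Pt1 against parental cells, by 1.45 ± 0.28 (adjusted p = 0.0104) and by 2.77 ± 0.74 (adjusted p = 0.0445). The KRT8 call was lost without Pt1 array 2 or 3, and the KRT18 call without any 1 array other than OHP arrays 2 and 3. In OHP against parental cells neither passed with all arrays, and KRT18 read 793, 194 and 1257 on the OHP arrays. Without OHP array 2 both passed there, KRT18 at 1.45 ± 0.25 (adjusted p = 0.0015) and KRT8 at -0.87 ± 0.27 (adjusted p = 0.0395). In OHP against Pt1 3 of the 7 markers passed, 2 higher and 1 lower, where 7.59% of all genes passed. There KRT7 rose by 3.56 ± 0.26 (adjusted p = 2.66e-05) and KRT8 fell by 2.16 ± 0.28 (adjusted p = 0.00134). EPCAM, an epithelial adhesion molecule, was the marker of the 7 that ran in the order of HBA2, at 3640, 1030 and 3666 in OHP, 237, 234 and 205 in Pt1 and 19915, 16636 and 24996 in parental cells. EPCAM was at least 63.0-fold lower in Pt1 than in parental cells (limma adjusted p = 9.37e-06) and fell by 3.14 ± 0.46 in OHP (adjusted p = 0.00319).

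**Figure D2:**
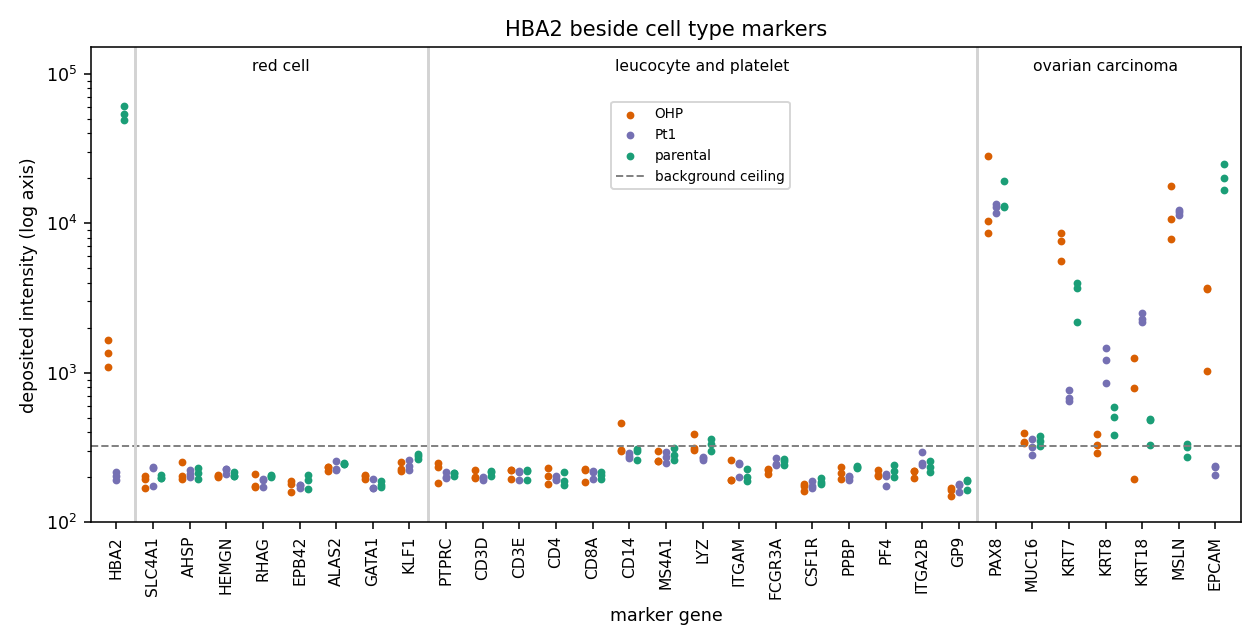
Deposited intensity (log axis) of HBA2 probe 1, 8 red cell, 15 leucocyte and platelet and 7 ovarian carcinoma markers on each OHP, Pt1 and parental array, with a dashed line at the background ceiling of 321. The red cell markers lie between 159 and 284 in all lines, and probes are to be read against the ceiling, not against each other.

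No measured gene around HBA2 differed by nearly as much between the lines. On chromosome 16 the 16 measured neighbours were tested with limma over all genes, at a Benjamini-Hochberg adjusted p under 0.05. None of the 16 passed in Pt1 against parental cells, where 9.88% of all genes did, and their median log2 fold change was 0.06 against -0.02 over all genes. In OHP against parental cells 1 of 16 passed, lower, where 5.41% of all genes passed and 3.67% were lower. In OHP against Pt1 1 of 16 passed, lower, where 7.59% of all genes passed and 4.07% were lower.

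The nearest measured gene beyond the cluster on the HBZ side is NPRL3, a subunit of an inhibitor of mTORC1, whose introns hold the main alpha globin enhancers. NPRL3 read 13276, 20477 and 11887 on the OHP arrays, 12374, 11931 and 13838 on the Pt1 arrays and 10844, 11811 and 10761 on the parental arrays. Its log2 fold change was 0.41 ± 0.21 in OHP (adjusted p = 0.398) and 0.19 ± 0.21 in Pt1 (adjusted p = 0.680) against parental cells, and neither passed. On the HBQ1 side, LUC7L, a splicing factor, had 0.07 ± 0.41 in OHP (adjusted p = 0.971) and 0.13 ± 0.41 in Pt1 (adjusted p = 0.914). The DNA glycosylase gene MPG had -0.06 ± 0.22 in OHP and 0.03 ± 0.22 in Pt1, and its signal lay near the ceiling.

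The neighbour that passed was FAM234A. It fell by 0.61 ± 0.15 in OHP against parental cells (adjusted p = 0.0416) and by 0.62 ± 0.15 in OHP against Pt1 (adjusted p = 0.0326). Either call was lost without any 1 of the arrays other than OHP array 2, and with the replicate number as a block the adjusted p in OHP against parental cells was 0.0831. RHBDF1, an inactive rhomboid protein, had 0.82 ± 0.36 in OHP (adjusted p = 0.316) and 0.81 ± 0.36 in Pt1 (adjusted p = 0.233) against parental cells. Without OHP array 2, which enters only the spread of this comparison, 4 of 16 neighbours passed in Pt1 against parental cells, where 25.9% of all genes did. POLR3K (0.80 ± 0.16), RHBDF1 (0.81 ± 0.18) and MRPL28 (0.63 ± 0.19) were then higher and NME4 (-0.57 ± 0.17) lower. The higher ones run opposite to HBA2.

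Around the beta cluster, 0 of 19 measured neighbours passed against parental cells in Pt1, where 9.88% of all genes did, or in OHP, where 5.41% did, and 15 of the 19, mostly olfactory receptors, never passed the ceiling. In OHP against Pt1 1 of 19 passed, higher, where 3.51% of all genes were higher. This was the olfactory receptor gene OR52A5, which rose by 0.82 ± 0.19 (adjusted p = 0.0287). It read 724, 719 and 537 in OHP and 374, 456 and 413 in Pt1, and lay above the ceiling on all 9 arrays. That call was lost without OHP array 1, without any 1 of the Pt1 arrays and without parental array 3. Without OHP array 2, 3 of the 19 passed in Pt1 against parental cells, where 25.9% of all genes did.

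**Figure D3:**
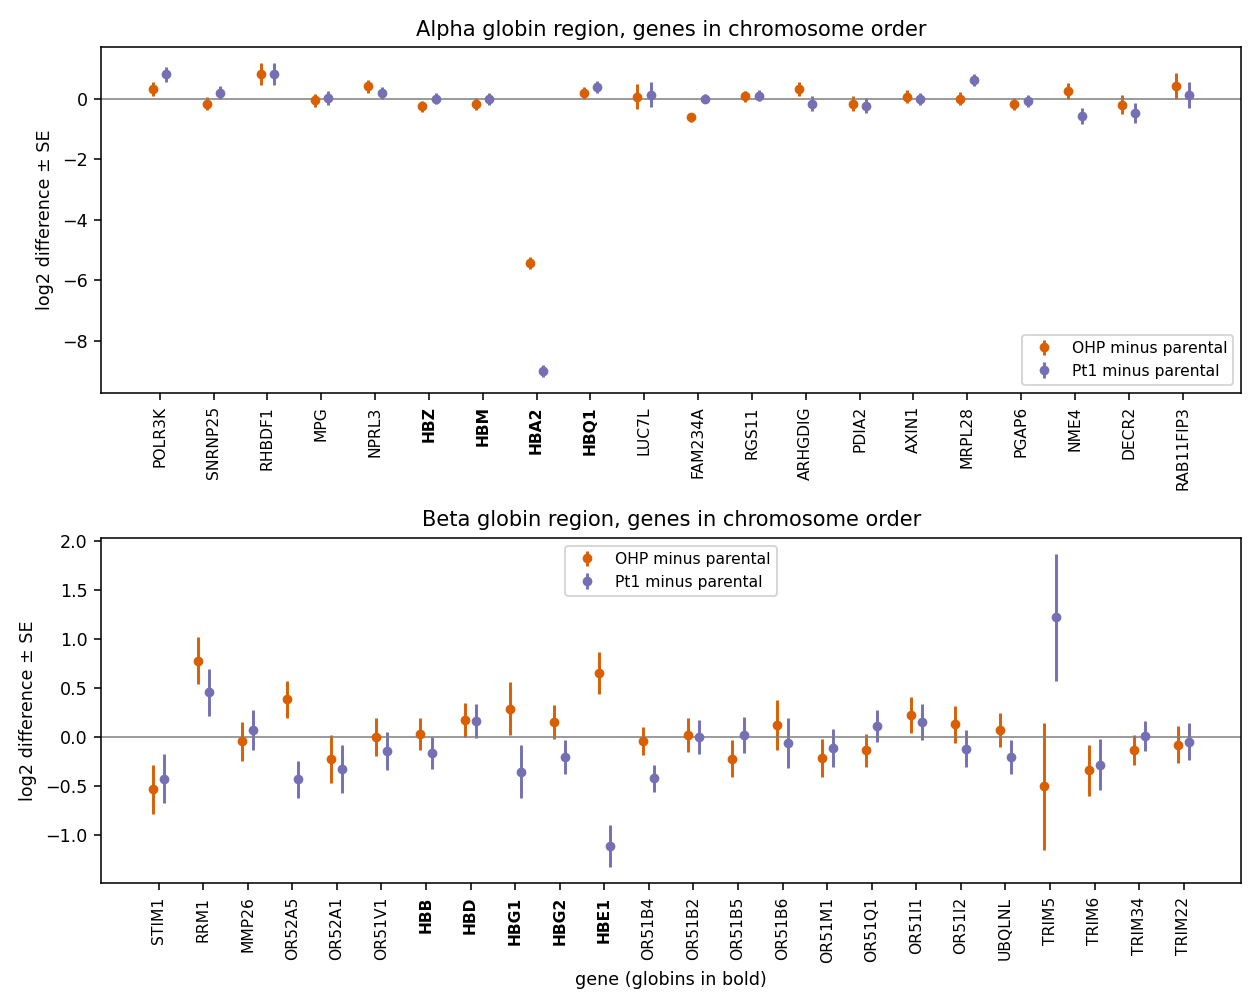
Log2 difference from parental cells (points, with bars of ± 1 SE from limma) of OHP and Pt1 for the measured genes around the alpha globin cluster (upper panel) and the beta globin cluster (lower panel), in chromosome order and not to distance. HBA2 stands at -5.44 in OHP and -8.99 in Pt1 among neighbours on chromosome 16 within 1 unit of 0, and HBE1 is at 0.66 in OHP. Where both lines are at background, as for HBE1 in Pt1 and parental cells, a plotted difference cannot be read as a level.

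Genes that make haem, handle iron or regulate globins were counted next. Over 7 lists of such genes, 116 of 131 were measured, and 10 passed in Pt1 against parental cells (8.62%, against 9.88% of all genes), 3 higher and 7 lower (4.15% and 5.73% of all genes). In OHP against parental cells 6 passed (5.17%, against 5.41%), 2 higher and 4 lower (1.75% and 3.67% of all genes), and in OHP against Pt1 7 passed (6.03%, against 7.59%), 5 higher and 2 lower (3.51% and 4.07% of all genes). These shares are near those of all genes. Without OHP array 2 the counts were 26, 17 and 9, where 25.9%, 16.7% and 12.2% of all genes passed. In Pt1 against parental cells 6 passed without Pt1 array 1 and 6 without Pt1 array 2. In OHP against Pt1 11 passed without OHP array 3, and 3 without Pt1 array 2 or without Pt1 array 3. For these last settings no share of all genes is given, so the counts cannot be read as a result about the lists.

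None of 14 measured haem synthesis genes passed with all arrays in any of the 3 comparisons. Of all genes, 9.88% passed in Pt1 and 5.41% in OHP against parental cells, and 7.59% in OHP against Pt1. ALAS1, the first enzyme of haem synthesis outside red cells, read 302 to 482 in OHP, 562 to 723 in Pt1 and 432 to 780 in parental cells. FECH, which inserts iron to form haem, had a log2 fold change of 0.59 ± 0.17 in Pt1 against parental cells (adjusted p = 0.0543). Without OHP array 2, 4 of 14 passed in Pt1 against parental cells, where 25.9% of all genes did. FECH (0.59 ± 0.15, adjusted p = 0.00977) and ABCB10 (0.71 ± 0.19) were higher, and UROS (-0.57 ± 0.17) and FAM210B (-0.58 ± 0.16) lower. In OHP against parental cells none then passed, where 16.7% of all genes did. In OHP against Pt1 1 of 14 did, FECH (-0.72 ± 0.17, adjusted p = 0.0116), where 12.2% of all genes did. HMOX1, which breaks haem down, had -0.38 ± 0.28 in OHP (adjusted p = 0.618) and -0.66 ± 0.28 in Pt1 (adjusted p = 0.196).

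Of 14 measured genes of haem breakdown and transport, SLC48A1 passed against parental cells with all arrays, lower in both resistant lines. That is 1 of 14 in each comparison, where 9.88% of all genes passed in Pt1 and 5.41% in OHP, and 5.73% and 3.67% were lower. The counts without OHP array 2 were 4 of 14 in Pt1, 1 higher and 3 lower, and 3 of 14 in OHP, 1 higher and 2 lower, where 25.9% and 16.7% of all genes passed. SLC48A1, which moves haem out of lysosomes, read 3993, 3950 and 4018 in OHP, 5520, 4143 and 4875 in Pt1 and 12298, 9263 and 8657 in parental cells. It fell by 1.34 ± 0.18 in OHP (adjusted p = 0.00214) and by 1.06 ± 0.18 in Pt1 (adjusted p = 0.00518). The resistant lines did not overlap the parental arrays, as for 39.4% of all genes in Pt1 and 18.6% in OHP.

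Among 34 measured regulators of red cell and globin transcription, 14 never passed the ceiling, among them GATA1, KLF1, TAL1, NFE2 and BACH1. Against parental cells 2 of 34 passed in Pt1 and 2 in OHP, all higher, where 4.15% and 1.75% of all genes were higher. In either direction 9.88% and 5.41% of all genes passed. Without OHP array 2 it was 5 and 4, where 25.9% and 16.7% of all genes passed in either direction. In OHP against Pt1 2 of 34 passed, 1 higher and 1 lower, where 7.59% of all genes passed. MYB, a factor of blood progenitors, rose in both resistant lines. It read 986, 1037 and 1276 in OHP, 1217, 1311 and 1620 in Pt1 and 307, 414 and 424 in parental cells, with log2 fold changes of 1.83 ± 0.22 in OHP (adjusted p = 0.000953) and 2.19 ± 0.22 in Pt1 (adjusted p = 0.000199). NFIA, a factor that favours the red cell over the granulocyte fate in blood progenitors, rose in Pt1. It read 594, 668 and 665 there against 209, 210 and 191 in parental cells, at least 1.998-fold higher (adjusted p = 2.83e-05), and 244, 212 and 202 in OHP, at background.

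GATA2, a factor of early blood progenitors, rose by 0.85 ± 0.21 in OHP against parental cells (adjusted p = 0.0491), a call lost without any 1 of the arrays other than OHP arrays 2 and 3. The nuclear receptor NR2C2, which binds fetal and embryonic beta-type promoters, rose by 0.62 ± 0.16 in OHP against Pt1 (adjusted p = 0.0469), a call lost without any 1 array.

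A wider list of red cell genes, which holds some of the markers above, had 18 measured genes. Of these, 6 lay above the ceiling on all arrays of at least 1 line, among them ANK1 and CA2. The list gave 3 calls in Pt1 against parental cells, all lower, and 2 in OHP against parental cells, both lower. Of all genes, 5.73% were lower in Pt1 and 3.67% in OHP. These counts became 5 and 3 without OHP array 2, all lower, where 25.9% and 16.7% of all genes passed in either direction. In OHP against Pt1 3 of 18 passed, 2 higher and 1 lower, where 7.59% of all genes passed. Without OHP array 2 it was also 3, where 12.2% of all genes passed. ANK1, the ankyrin of the red cell membrane skeleton, read 847, 818 and 653 in OHP, 1202, 836 and 1055 in Pt1 and 5614, 4905 and 4293 in parental cells. It fell by 2.84 ± 0.20 in OHP (adjusted p = 3.66e-05) and fell by 2.38 ± 0.20 in Pt1 (adjusted p = 7.10e-05). CA2, a carbonic anhydrase abundant in red cells and present in many epithelia, read 7368, 5244 and 10576 in OHP, 18742, 22710 and 20403 in Pt1 and 39082, 45497 and 56014 in parental cells.

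CA2 fell by 2.66 ± 0.26 in OHP (adjusted p = 0.000252) and fell by 1.18 ± 0.26 in Pt1 (adjusted p = 0.0176) against parental cells, and fell by 1.48 ± 0.26 in OHP against Pt1 (adjusted p = 0.00702). The Pt1 call was lost without any 1 of the Pt1 arrays and without parental array 2 or 3. ERMAP, an erythroblast membrane protein, fell by 1.08 ± 0.20 in Pt1 against parental cells (adjusted p = 0.00683). It rose by 1.01 ± 0.20 in OHP against Pt1 (adjusted p = 0.0129), as did the membrane skeleton gene DMTN, by 0.91 ± 0.23 (adjusted p = 0.0412). ERMAP lost the call between OHP and Pt1 without Pt1 array 2 or 3, and DMTN lost its call without any 1 of 7 arrays, all but OHP arrays 2 and 3. CA2 was thus lowest in OHP, whereas HBA2 was lowest in Pt1.

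Iron genes gave 2 calls among 24 measured in Pt1 against parental cells, 0 in OHP against parental cells and 1 in OHP against Pt1, where 9.88%, 5.41% and 7.59% of all genes passed. Leaving out OHP array 2 gave counts of 4, 3 and 1, where 25.9%, 16.7% and 12.2% of all genes passed. LCN2, a lipocalin that binds iron carriers, read 13132, 32086 and 8738 in OHP, 2169, 2070 and 2531 in Pt1 and 20820, 6633 and 11708 in parental cells. It fell by 2.43 ± 0.50 in Pt1 against parental cells (adjusted p = 0.0131) and rose by 2.83 ± 0.50 in OHP against Pt1 (adjusted p = 0.00771). The call in Pt1 was lost without Pt1 array 1 or 2 or parental array 1. NFS1, which supplies sulfur for iron-sulfur clusters, rose by 1.37 ± 0.34 in Pt1 (adjusted p = 0.0308). That call was lost without any 1 of the Pt1 arrays and without parental array 1 or 2. In OHP against parental cells NFS1 had 0.43 ± 0.34 (adjusted p = 0.645), and 0.80 ± 0.24 without OHP array 2 (adjusted p = 0.0393). The transferrin receptor TFRC had 0.03 ± 0.45 in OHP (adjusted p = 0.987) and 0.48 ± 0.45 in Pt1 (adjusted p = 0.622). It read 31164, 9445 and 36021 on OHP arrays 1, 2 and 3, so its OHP value rests in part on array 2.

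Of 8 measured genes of red cell redox and haemoglobin chemistry, NOS3 and GPX1 passed in Pt1 against parental cells and NOS3 in OHP, all lower. Of all genes, 5.73% were lower in Pt1 and 3.67% in OHP, and 9.88% and 5.41% passed in either direction. When OHP array 2 was left out, 4 of 8 passed in Pt1 and 4 of 8 in OHP, 2 higher and 2 lower in each, where 25.9% and 16.7% of all genes passed. In OHP against Pt1 1 of 8 passed, and 3 of 8 without OHP array 2, where 7.59% and 12.2% of all genes passed. NOS3, the endothelial nitric oxide synthase, read 3164, 4554 and 2916 in OHP, 2050, 1646 and 1562 in Pt1 and 6495, 7606 and 7433 in parental cells. It ran in the order of HBA2, parental over OHP over Pt1. No lines overlapped, as for 4.68% of all genes. NOS3 fell by 1.06 ± 0.21 in OHP (adjusted p = 0.0161) and fell by 2.10 ± 0.21 in Pt1 (adjusted p = 0.000174) against parental cells, and rose by 1.04 ± 0.21 in OHP against Pt1 (adjusted p = 0.0146).

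The NOS3 call in OHP against parental cells was lost without OHP array 1 or 3 or parental array 2 or 3, and that between OHP and Pt1 without Pt1 array 2 or 3. GPX1, a peroxidase, fell by 1.31 ± 0.33 in Pt1 (adjusted p = 0.0331), a call lost without any 1 of the Pt1 or parental arrays. In OHP against parental cells GPX1 had -1.09 ± 0.33 (adjusted p = 0.106), and -0.63 ± 0.17 without OHP array 2 (adjusted p = 0.0194). Of the other globins, 0 of 4 measured passed in any of the 3 comparisons. Of all genes, 9.88% passed in Pt1 and 5.41% in OHP against parental cells, and 7.59% in OHP against Pt1. Myoglobin (MB) and cytoglobin (CYGB) were at background on all arrays, and NGB, neuroglobin, read 376, 378 and 434 in OHP, 448, 369 and 428 in Pt1 and 351, 387 and 386 in parental cells.

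**Figure D4:**
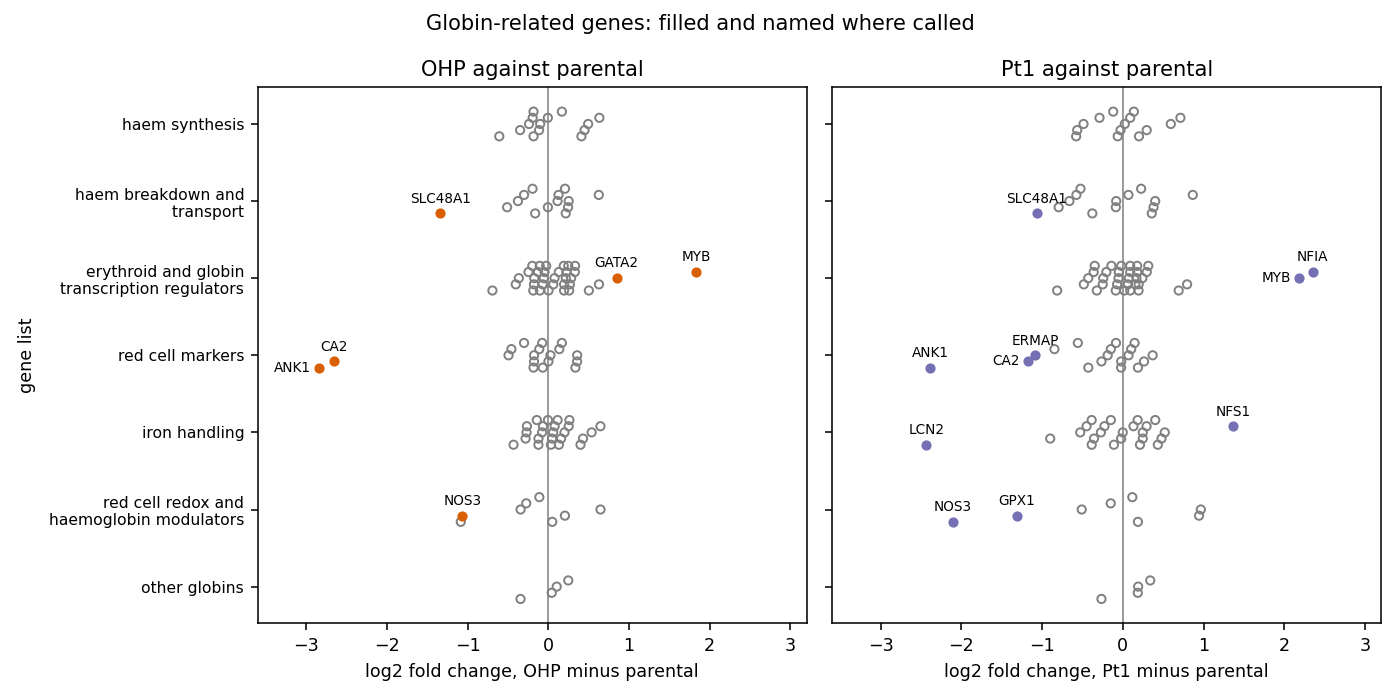
Log2 fold change of the measured genes in 7 globin-related lists, OHP minus parental (left) and Pt1 minus parental (right), 1 point for each gene, filled and named where the limma adjusted p is under 0.05. The haem synthesis and other globin lists hold no filled point, and SLC48A1, MYB, ANK1, CA2 and NOS3 are filled on both sides.

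The genes whose pattern over the 9 arrays was most like that of HBA2 probe 1 were found by Pearson correlation of log2 values among 10449 genes above the ceiling on all arrays of a line. This is a description, since the arrays fall into 3 lines and the correlation mainly reflects their 3 levels. The closest was ADCY9, an adenylyl cyclase gene (r = 0.994), followed by TMEM144 (0.989) and USH1C (0.987), which encodes the scaffold protein harmonin. ZNF615 (0.987), PTER (0.985), CCN3 (0.983), FABP6 (0.981), NDUFA3 (0.980), CD44 (0.980) and ARMC12 (0.979) came next. Without OHP array 2 the 10 correlations ran from 0.981 to 0.994.

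The 10 genes shared the order of the lines with HBA2 and not the size of its difference. ADCY9 read 2454, 2591 and 2504 in OHP, 1536, 1710 and 1766 in Pt1 and 4664, 5450 and 5189 in parental cells. CD44, the hyaluronan receptor, read 26247, 29000 and 28034 in OHP, 13319, 18368 and 15920 in Pt1 and 56843, 52965 and 48756 in parental cells. CCN3, a secreted matricellular protein, had the widest range of the 10, at 488, 407 and 596 in OHP, 224, 210 and 191 in Pt1 and 7811, 4711 and 8504 in parental cells.

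**Figure D5:**
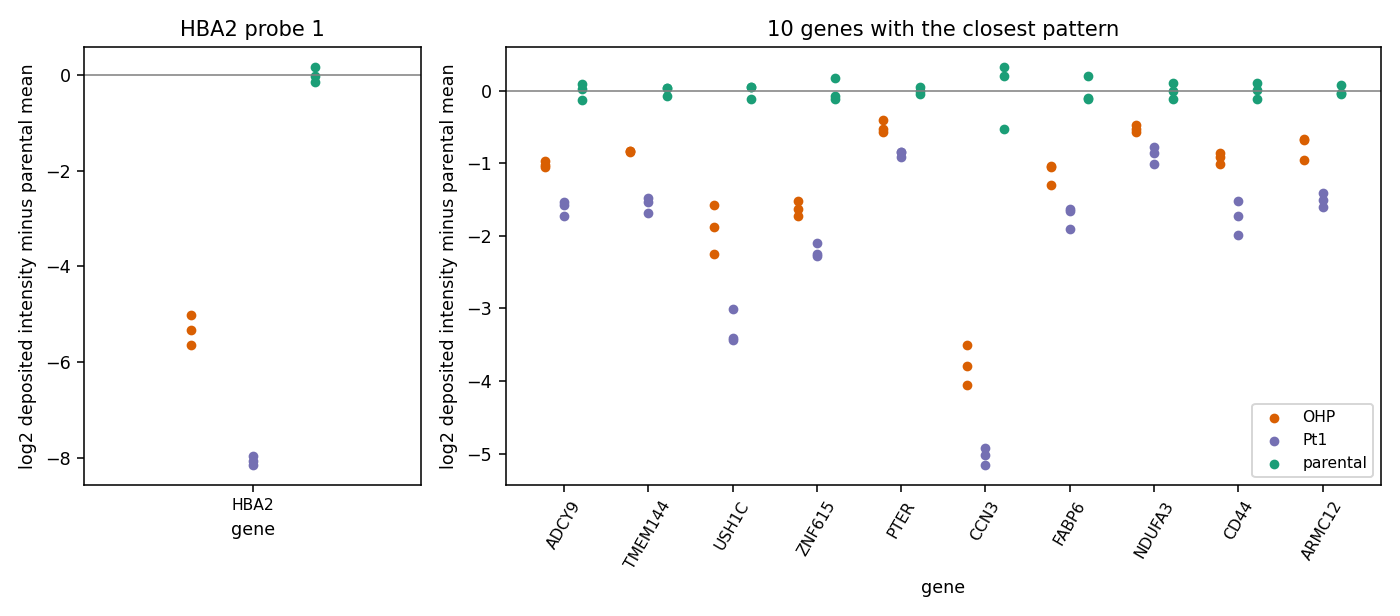
Log2 deposited intensity relative to the parental mean on each OHP, Pt1 and parental array for HBA2 probe 1 (left) and for the 10 genes with the closest pattern (right), 1 point for each array and with a separate scale in each panel. In every gene shown the order is parental over OHP over Pt1, and the difference of HBA2 is the widest.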

How the data were processed

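The authors deposited linear intensity values of 48803 probes on 9 arrays. Per the submitters' processing notes BeadStudio was used, with no version given. Sorted values of any 2 arrays lay within 1.08% of each other, as quantile normalization leaves them, and the lowest was 125, so background had not been subtracted. A second table of 18 columns was not used here, because its column names match no sample's labels.

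Deposited intensities were corrected with normexp (offset 50) and taken to log2. Of the probes, 28098 had 1 gene symbol, 13 several and 20692 none. The brightest probe stood for each of 18852 genes, and globin probes were also fitted singly. All 9 arrays entered 1 model in limma 3.58.1 under R 4.3.3 (lmFit, eBayes, 6 residual and 3.47 prior degrees of freedom), 2-sided, with Benjamini-Hochberg adjustment over all genes within a comparison. Where all arrays of a line were at or under the ceiling, the fold is a bound, the geometric mean of the brighter line over the ceiling. On values simulated for Pt1 against parental cells (18852 genes, 50 changed at each size), 4%, 34%, 78% and 94% of changes of 0.5, 1, 2 and 3 (log2) were recovered, with 4 false calls. The simulated noise was independent between arrays, and a smaller share of genes was changed than was called in the data. These rates therefore need not hold for the measured comparisons.

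The members and the 11 gene lists were chosen with earlier results of these data known. Beside all members, the text names up to 4 called genes of each list with the largest change, a preset group of red cell, haem, iron, globin, cluster neighbour and ovarian marker genes, and the 10 genes most like HBA2. Genes called without OHP array 2 alone were named after their values were seen. Of 192 listed genes, 173 were measured. No 2 arrays held identical values. Alternatives were the background correction, its offset, a further quantile step, array weights, the replicate number as a block, the arrays of 2 lines alone, all probes, a filter on dim genes, another ceiling and leaving out each array. Plots were drawn with Python 3.11.15 and matplotlib 3.10.9. The replicate numbers come from the titles, which state no shared batch. Deviations of same-numbered arrays from their line means correlated across genes at 0.126, 0.671 and 0.502 between OHP and parental cells, which counts as paired there, at 0.182, 0.0449 and -0.00431 between Pt1 and parental cells and at 0.0214, -0.0114 and -0.192 between OHP and Pt1. Apart from the blocked value of FAM234A, the adjusted p values in the text come from models without the replicate number. Results with it as a block are summarised below.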

Additional observations from a re-analysis of the deposited data

How the results depend on the processing

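The HBA2 differences kept their direction under every alternative run. Pt1 minus parental was -8.99 on the log2 scale, with -8.06 without normexp and -9.55 with an offset of 16, and OHP minus Pt1 was 3.55, with 2.73 and 4.07, because the correction sets the level that background takes in Pt1. Leaving out 1 array gave -9.07 to -8.91 for Pt1 minus parental, -5.61 to -5.27 for OHP minus parental and 3.38 to 3.72 for OHP minus Pt1. The number of globin-related list genes called moved by over 1.5 times under some settings, and the cause was not tested. For Pt1 against parental it was 10, with 30 under array weights (whose estimation stopped before it converged), 26 with the arrays of the 2 lines alone, and 6 to 26 with 1 array left out. For OHP against parental it was 6, with 17 under array weights and 4 to 17 with 1 array left out. For OHP against Pt1 it was 7, with 28 under array weights, 3 with the 2 lines alone and 3 to 11 with 1 array left out. Without OHP array 2, 25.9%, 16.7% and 12.2% of all genes passed in these 3 comparisons. For the other alternatives no share of all genes is given, so their counts cannot be read as a result about the lists. Deviations of same-numbered arrays from their line means correlated at 0.126, 0.671 and 0.502 between OHP and parental cells. With the replicate number as a block the counts were 14, 6 and 7 and the HBA2 differences were -8.99, -5.44 and 3.55, and among the named calls those of FAM234A alone were lost. Of the differences of the globin probes other than HBA2 probe 1, 9 moved by more than 1 SD and 396 did not. Those that moved belonged to HBA2 probe 2, HBE1 and HBQ1. The named calls remained in 874 recomputations and were lost in 118, with no reversal. Signal over background limits every globin, and HBA2 in Pt1.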
